A study of Homo sapiens with 16 samples.

Results

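The 10 genes described here are MYCN, the genes around it on chromosome 2 (MYCNOS, GACAT3, NBAS and DDX1) and partners of its protein in the MAX network (MAX, MXI1, MXD4, MNT and MGA). They are 10 of the 27037 genes in the count table, and they were chosen by name with their changes between the treatment groups already known. Their differences between groups are therefore given as descriptions, with standard errors and without p-values. All 10 passed the filter on low counts, which kept 15415 genes.

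RNA-seq was measured in SK-N-BE(2)C, an established human neuroblastoma cell line of the adrenergic (ADRN) type in which MYCN is amplified, so the results are from cells of a single line. The 16 samples formed 4 groups of 4 replicates, and all groups carried the amplified gene. Cells received the vehicle dimethyl sulfoxide (DMSO), 10 µM retinoic acid (RA), 1 µM palbociclib (PB), which inhibits the G1 kinases CDK4 and CDK6, or both agents at these doses (PB+RA). RNA was collected after 5 days of treatment. Values are CPM, the count of a gene scaled to a total of 1000000 counts in its sample, and changes are log2 fold changes from edgeR's quasi-likelihood fit with the standard error (SE).

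MYCN encodes N-Myc, a basic helix-loop-helix leucine zipper transcription factor of the sympathetic lineage and a MYC family member. MYC proteins bind E-box sequences as dimers with MAX and raise transcription of growth genes. The MXD proteins (MXI1 is a member of this family), MNT and MGA also dimerise with MAX, bind the same sequences and repress transcription. The MXD proteins and MNT do so in part through SIN3 and histone deacetylases. MYCNOS is the antisense transcript that starts inside MYCN, GACAT3 is a long non-coding RNA downstream of it, and DDX1 and NBAS are the protein-coding neighbours that are often amplified together with MYCN in neuroblastoma.

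Samples held 19.5 to 31.6 M counts, and a count of 0 allows up to 0.154 CPM in the shallowest sample, for counting error only. All 8 adrenergic markers on a list were expressed, with summed levels of 2330.0 to 2621 CPM in DMSO and 2787 to 3698 CPM in PB+RA. Of 8 mesenchymal markers 7 were in the table. Their summed level was 1102 to 1353 CPM in DMSO, 929 to 1075 CPM in PB, 1840.0 to 2282 CPM in RA and 1139 to 1561 CPM in PB+RA, most of it from VIM and FN1, while YAP1 and FOSL1 never exceeded 4.78 CPM. The summed level of the 4 glial markers was 14.5 to 19.1 CPM in DMSO and 27.5 to 34.1 CPM in PB, and the glial factor SOX10 had 1 count in all samples together. These markers moved with the treatments, and their part in the results below was not tested. In bulk RNA a change in the share of cells of a kind and a change in RNA per cell cannot be told apart.

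Upstream sequences are shown for MYCN, for GACAT3, which had the largest fold change of the 10, and for MXD4 and MNT, the members with an E-box. They are the 250 bases before the RefSeq start on GRCh38.p14, read 5′ to 3′ on the strand of the gene, at chr2:15940300-15940549 (+) for MYCN, chr2:16050177-16050426 (+) for GACAT3, chr4:2262110-2262359 (-) for MXD4 and chr17:2401061-2401310 (-) for MNT. Capitals mark E2F motifs in MYCN and E-boxes in MXD4 and MNT.
MYCN: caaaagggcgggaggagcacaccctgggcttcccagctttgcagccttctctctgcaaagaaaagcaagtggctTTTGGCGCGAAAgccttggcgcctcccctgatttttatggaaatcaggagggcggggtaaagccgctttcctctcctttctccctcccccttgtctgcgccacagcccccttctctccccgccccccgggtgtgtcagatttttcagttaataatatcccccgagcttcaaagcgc
GACAT3: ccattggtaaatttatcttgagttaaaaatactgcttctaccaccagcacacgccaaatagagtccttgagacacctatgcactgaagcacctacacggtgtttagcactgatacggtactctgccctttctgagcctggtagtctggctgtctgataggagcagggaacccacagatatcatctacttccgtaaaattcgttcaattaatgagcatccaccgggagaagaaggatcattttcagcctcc
MXD4: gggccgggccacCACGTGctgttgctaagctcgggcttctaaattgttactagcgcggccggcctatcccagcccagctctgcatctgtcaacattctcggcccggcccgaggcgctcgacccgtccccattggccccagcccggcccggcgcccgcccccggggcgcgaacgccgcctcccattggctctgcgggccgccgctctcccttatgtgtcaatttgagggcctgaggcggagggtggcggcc
MNT: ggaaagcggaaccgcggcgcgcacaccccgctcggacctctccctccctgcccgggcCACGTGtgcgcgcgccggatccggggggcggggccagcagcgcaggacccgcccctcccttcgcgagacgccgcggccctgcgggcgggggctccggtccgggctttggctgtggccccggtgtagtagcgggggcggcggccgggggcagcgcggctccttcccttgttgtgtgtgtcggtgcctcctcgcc

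The motifs searched on both strands were the E-box CACGTG and the E2F forms TTTGGCGC, TTTCGCGC, TTTCCCGC and TTTGCCGC. RefSeq windows that run from 250 bases before to 50 bases after a start were found for all 10 members, 16 windows in all. The E-box was in those of MXD4 and MNT, where 7.26% of all 35116 promoter windows hold it. An E2F form was in the window of MYCN and in 1 of the 3 windows of MGA, where 3.31% of all windows hold any of the 4. In MYCN, TTTGGCGC on the strand of the gene and TTTCGCGC on the other strand overlap and together give the stretch in capitals, which begins 176 bases and ends 165 bases before the start. A match describes these letters and not binding.

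Treatment with PB was accompanied by higher levels of MYCN, MYCNOS, GACAT3, MXI1 and MXD4, RA alone by no change of this size in any member, and PB+RA by higher levels of the same 5 genes and of MAX and MNT. A gene was called when its adjusted p over all genes tested was below 0.05 and its log2 fold change exceeded 0.5 in either direction. With PB against DMSO, 5 of the 10 were called higher, where 16.9% of all genes tested were, and with PB+RA against DMSO it was 7 of the 10 and 24.0%. With PB+RA against RA, 4 were called higher (MYCN, MYCNOS, GACAT3 and MXD4), where 14.9% of all genes were. The members were named with these contrasts known, so nothing is read from these shares.

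In the main fit, which has no term for replicate number, no member was called lower in any comparison. None was called in either direction with RA against DMSO, with PB+RA against PB or for the interaction. The interaction compares the change under PB+RA with the sum of the changes under PB and RA. Of all genes tested, 11.3% were called lower with PB, 2.54% with RA and 17.9% with PB+RA against DMSO, and 7.27% were called lower for PB+RA relative to PB and 14.1% relative to RA. Called higher were 10.8% with RA against DMSO and 9.02% with PB+RA against PB, and 3.44% were called for the interaction. At an unadjusted p below 0.05 by the same edgeR fit, 4 members passed for RA, 6 for PB+RA relative to PB and 2 for the interaction. The share of all genes at this unadjusted threshold is not given here, so nothing is read from these counts. At an adjusted p below 0.05 with no fold minimum, 18.8% of all genes were higher and 16.4% lower with RA. The shares were 17.2% and 20.9% for PB+RA relative to PB, and 0.947% and 4.35% for the interaction. DESeq2 called 0 members with RA against DMSO, with PB+RA against PB and for the interaction. Limma-voom called 0, 1 and 0, the 1 being GACAT3, which was lower with PB+RA than with PB. With replicate number added to the edgeR fit (replicate block), GACAT3 was called lower with PB+RA against PB (-0.60) and for the interaction (-0.60). In that fit 1279 and 981 of the 15415 genes were called lower in these comparisons. The median log2 fold change of the 10 was 0.59 with PB, 0.06 with RA and 0.55 with PB+RA, against 0.03, 0.01 and 0.04 over all genes tested.

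MYCN (GRCh37 chromosome 2, 16080672 to 16087129, plus strand) held 0.238% to 0.330% of all counts in the DMSO and RA samples. Its level was 2618, 3304, 3113 and 2752 CPM in DMSO replicates 1 to 4. It was 5352, 6337, 5159 and 5081 CPM with PB, and held up to 0.634% of all counts. Every PB sample lay above every DMSO sample, and the log2 fold change was 0.90 ± 0.13 (SE, n = 4 per group).

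With RA alone MYCN was at 2476, 3219, 2466 and 2378 CPM, which overlapped the DMSO samples, and the log2 fold change was -0.17 ± 0.13. With PB+RA it was at 4862, 5451, 3867 and 3670 CPM. These 4 samples lay above all DMSO samples and partly within the range of the PB samples. The log2 fold change was 0.57 ± 0.13 against DMSO, 0.74 ± 0.13 against RA and -0.33 ± 0.13 against PB. Within same-numbered replicates, MYCN was lower with PB+RA than with PB in 4 of 4 pairs, by log2 values from -0.47 to -0.14.

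The rise of MYCN with PB+RA was not equal across replicates. In same-numbered samples the log2 ratio to DMSO was 0.89 and 0.72 for numbers 1 and 2 but 0.31 and 0.42 for numbers 3 and 4. Fitted on replicates 3 and 4 alone, the value was 0.29 and not called, and on replicates 1 and 2 alone it was 0.77 and called. Leaving out PB+RA replicate 1 gave 0.49 and leaving out PB+RA replicate 2 gave 0.43, both under the fold threshold, while the PB value ranged from 0.76 to 0.97 over all 18 alternatives and was called in each.

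**Figure D1:**
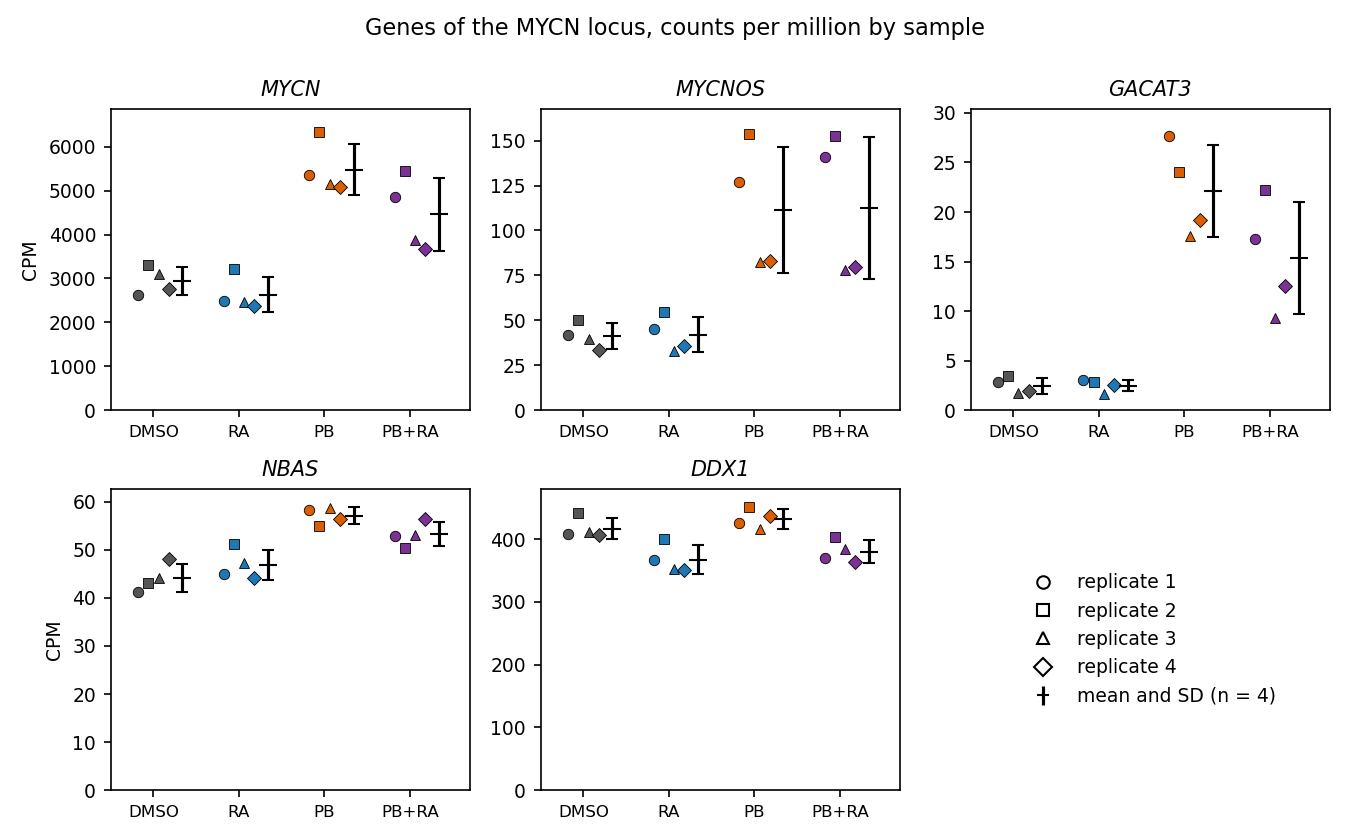
CPM of the 5 members on chromosome 2, a point per sample and a marker shape per replicate number, with the mean and SD of each group (n = 4) beside the points. MYCN, MYCNOS and GACAT3 lie higher in all PB and PB+RA samples than in any DMSO or RA sample, while DDX1 stays between 351 and 452 CPM in all 16.

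MYCNOS (chromosome 2, 16058473 to 16082371, minus strand) starts 1.7 kb inside the MYCN gene and shares 98 exon bases with it, 3.56% of the MYCN exons. It was at 41.8, 50.1, 39.7 and 33.2 CPM in DMSO and at 127, 154, 82.5 and 82.9 CPM with PB. The PB samples lay above the DMSO samples, with replicates 1 and 2 well above replicates 3 and 4, and the log2 fold change was 1.43 ± 0.27. With RA the levels were 44.9, 54.5, 32.8 and 35.5 CPM, and the log2 fold change was 0.02 ± 0.27.

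With PB+RA, MYCNOS was at 141, 153, 78.1 and 79.4 CPM. This overlapped the PB samples replicate by replicate, with a log2 fold change of -0.01 ± 0.26 against PB and 1.42 ± 0.27 against DMSO. Replicates 1 and 2 were above replicates 3 and 4 in all 4 groups, for the agents and for the vehicle alike. The rise with PB was 1.60 when fitted on replicates 1 and 2 and 1.14 when fitted on replicates 3 and 4, and it was called in both.

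The sources did not state the strand column of the counts, so part of the MYCNOS counts could be reads of MYCN, whose level is far higher. There were 12.1 to 15.98 MYCNOS counts per 1000 MYCN counts in DMSO, 13.3 to 18.1 in RA, 15.99 to 24.2 in PB and 20.2 to 28.9 in PB+RA. The ratio was highest in PB+RA within every replicate number, where MYCN itself was lower than with PB. How many MYCNOS counts come from MYCN transcripts was not tested.

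GACAT3 (chromosome 2, 16154050 to 16227323, plus strand) starts 73.4 kb downstream of the MYCN start and had the largest fold change of the 10. It was low in DMSO, at 2.84, 3.42, 1.68 and 1.94 CPM (50 to 84 counts a sample). With PB it was at 27.7, 24.1, 17.5 and 19.2 CPM (369 to 645 counts), far from the DMSO samples, and the log2 fold change was 3.17 ± 0.29. With RA it was at 2.99, 2.79, 1.62 and 2.52 CPM, which overlapped the DMSO samples.

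With PB+RA, GACAT3 was at 17.3, 22.2, 9.29 and 12.5 CPM, and the log2 fold change was 2.61 ± 0.29 against DMSO. It was lower with PB+RA than with PB in 4 of 4 same-numbered pairs, by log2 values from -0.92 to -0.12, although the groups overlapped. The fitted difference was -0.56 ± 0.26 and was not called. With the replicate block it was -0.60 and called lower, as was the interaction at -0.60. Relative to MYCN there were 0.538 to 1.08 GACAT3 counts per 1000 MYCN counts in DMSO and 3.40 to 5.17 in PB, so GACAT3 rose more than MYCN did.

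**Figure D2:**
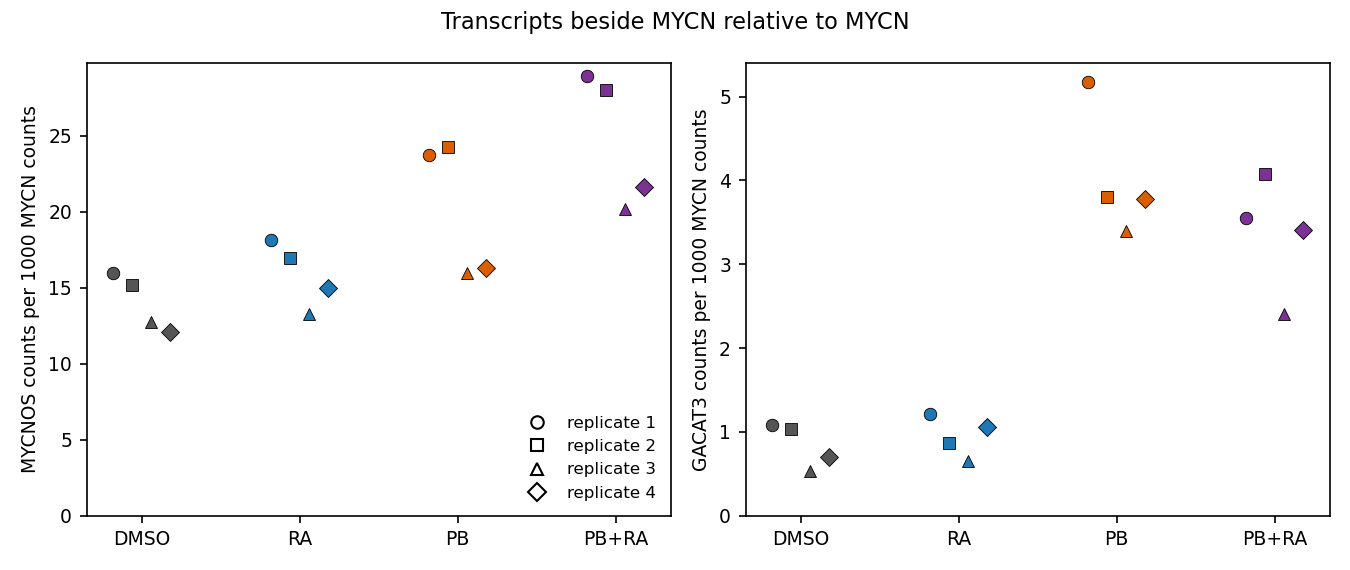
Counts of MYCNOS (left) and of GACAT3 (right) per 1000 counts of MYCN, a point per sample by group and a marker shape per replicate number. MYCNOS runs from 12.1 in DMSO to 28.9 in PB+RA with replicates 1 and 2 on top in each group, and GACAT3 is at 2.40 or more in every PB and PB+RA sample and at 1.21 or less in every other sample.

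The protein-coding neighbours upstream moved little. NBAS (chromosome 2, 15307040 to 15701464, minus strand), which encodes a protein of Golgi-to-endoplasmic-reticulum transport, starts 379 kb from MYCN. It was at 41.3, 43.0, 44.1 and 48.1 CPM in DMSO and at 58.3, 55.0, 58.7 and 56.4 CPM with PB. These groups did not overlap, and the log2 fold change of 0.37 ± 0.06 was below the fold threshold. With RA it was at 44.2 to 51.2 CPM (0.08 ± 0.06) and with PB+RA at 50.4 to 56.5 CPM (0.24 ± 0.06).

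DDX1 (chromosome 2, 15731302 to 15774470, plus strand), an RNA helicase whose start lies 349 kb from that of MYCN, was at 409, 441, 410.5 and 406 CPM in DMSO and at 425, 452, 415 and 437 CPM with PB. These groups overlapped (0.05 ± 0.05). With RA it was at 367, 399.5, 352 and 351 CPM and with PB+RA at 369, 404, 383 and 363 CPM, and every one of these samples was below every DMSO sample. The log2 fold changes were small, -0.19 ± 0.05 with RA and -0.16 ± 0.05 with PB+RA. Copy number was not measured in these libraries.

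Of the 47 gene models with a start within 2 Mb of MYCN, 14 were in the count table and 8 passed the filter. Apart from the members these were LRATD1, GEN1 and SMC6. SMC6, a subunit of a chromosome maintenance complex 1901 kb from MYCN, fell from 59.6 to 65.8 CPM in DMSO to 38.7 to 43.9 CPM with PB (log2 fold change -0.56 ± 0.07, adjusted p = 4.7e-06 by edgeR). It also fell with PB+RA (-0.68 ± 0.07, adjusted p = 2.4e-07). GEN1, a Holliday junction resolvase, was not called, with -0.12 ± 0.07 for PB and -0.44 ± 0.07 for PB+RA.

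LRATD1, 1308 kb from MYCN, rested on 1 to 21 counts a sample. Its log2 fold change of 1.48 ± 0.61 with PB (adjusted p = 0.049 by edgeR) was called in 5 of 15 alternatives only, and that of 1.96 ± 0.57 with PB+RA (adjusted p = 0.0062) in all 15. The other 6 locus genes had at most 10 counts in any sample, among them MYCNUT, a transcript beside MYCN with a highest count of 1.

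**Figure D3:**
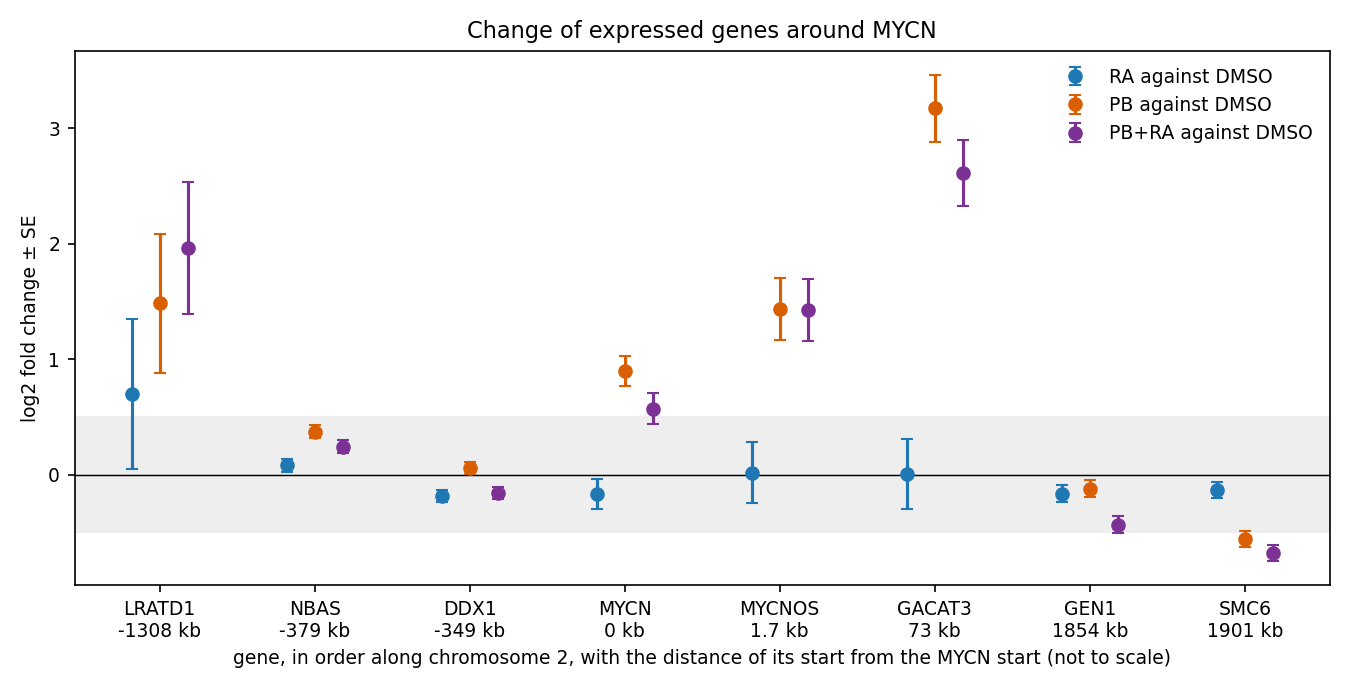
Log2 fold change ± SE against DMSO of the 8 expressed genes within 2 Mb of MYCN, in order along the chromosome with the distance of each start from that of MYCN. The grey band spans changes under 0.5. With PB the points of MYCN, MYCNOS and GACAT3 are at 0.90, 1.43 and 3.17 and those of NBAS and DDX1 at 0.37 and 0.05.

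MAX, the obligate partner of the network, was at 62.9, 66.1, 72.3 and 68.7 CPM in DMSO. It was at 82.5, 82.8, 91.3 and 84.5 CPM with PB (log2 fold change 0.34 ± 0.05) and at 73.0 to 79.2 CPM with RA (0.16 ± 0.05). With PB+RA it was at 99.0, 99.0, 94.96 and 99.97 CPM, the highest of the 4 groups, above all PB and all RA samples. The log2 fold change of 0.51 ± 0.05 lay just over the threshold of 0.5 and was called in 8 of 18 alternatives, with a value of 0.32 after a correction for GC content and length. MAX shares 822 exon bases with FNTB on the opposite strand, so its counts are uncertain where strand was not used. Other members share exon bases with opposite-strand non-coding transcripts that are not named in the count table. These are MNT (1065 bases, 12.2% of its exons), MGA (510 and 165), MXI1 (205) and GACAT3 (195, 5.19%). The same uncertainty holds for them, and its size was not tested.

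MXI1 and MXD4, which encode MXD family repressors, were the 2 members among the partners of MAX that were called higher with PB. MXI1 was at 34.5, 45.0, 45.4 and 41.3 CPM in DMSO, at 49.4, 58.9, 56.7 and 52.1 CPM with RA, at 69.6, 72.8, 75.4 and 70.9 CPM with PB and at 71.9, 76.0, 74.5 and 71.8 CPM with PB+RA. DMSO, RA and PB did not overlap, while PB and PB+RA did. The log2 fold change was 0.80 ± 0.08 with PB, 0.38 ± 0.08 with RA and 0.80 ± 0.08 with PB+RA, so the combination was at the level of PB alone. The interaction was -0.38 ± 0.11 and was not called.

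MXD4 was at 99.4, 101, 95.9 and 94.9 CPM in DMSO and at 219, 226, 212 and 214 CPM with PB. The log2 fold change of 1.15 ± 0.07 was nearly the same in each same-numbered pair, from 1.14 to 1.17. With RA it was at 97.3 to 116 CPM, which overlapped DMSO (0.12 ± 0.07). With PB+RA it was at 244, 231, 194 and 199 CPM (1.12 ± 0.07), on both sides of the PB samples.

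MNT, a MAX-binding repressor found in most proliferating cells, was at 44.8, 44.3, 35.8 and 40.0 CPM in DMSO. It was higher in every sample of each treatment group, at 49.2 to 59.0 CPM with PB, 48.7 to 54.6 CPM with RA and 51.3 to 66.3 CPM with PB+RA. The log2 fold changes were 0.38 ± 0.09, 0.32 ± 0.09 and 0.52 ± 0.09, of which the last was called, and it was called in 12 of 18 alternatives, with 0.25 after the correction for GC content and length. MGA, the largest of these proteins, was at 40.5 to 45.1 CPM in DMSO, 38.8 to 49.0 CPM with PB, 42.0 to 51.1 CPM with RA and 34.8 to 47.3 CPM with PB+RA. All groups overlapped, and its log2 fold changes lay between -0.25 and 0.03 in the 5 comparisons.

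**Figure D4:**
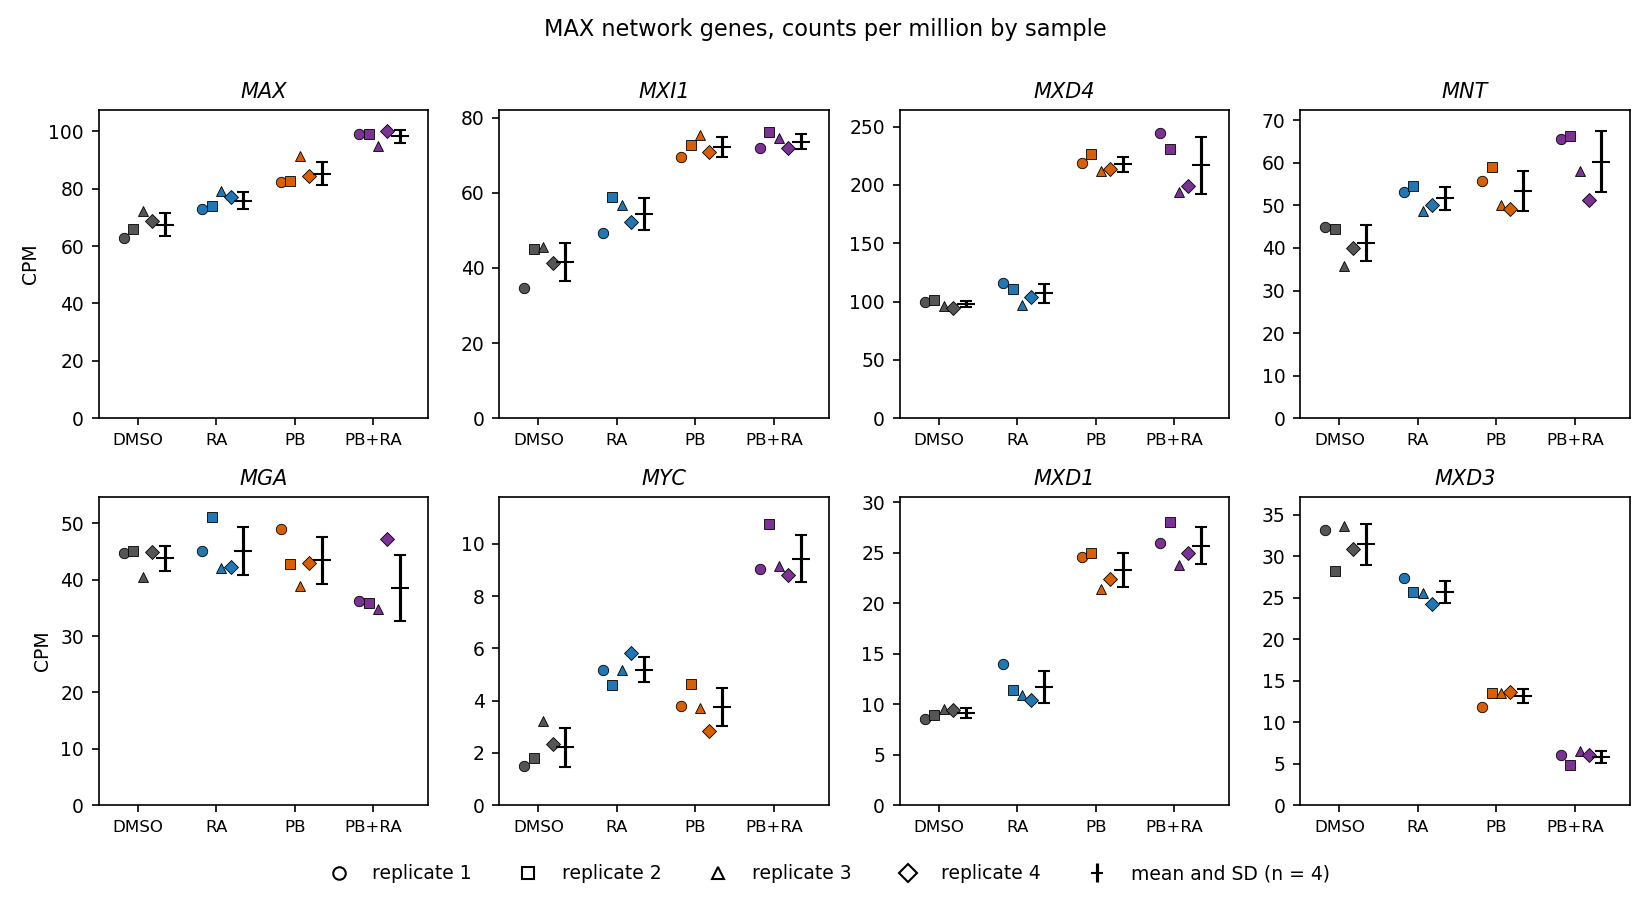
CPM of the 5 MAX network members and of MYC, MXD1 and MXD3 by sample, with the mean and SD of each group (n = 4). MXI1, MXD4 and MXD1 are higher in all PB and PB+RA samples than in any DMSO sample, MXD3 is lower in them, and MGA overlaps between all groups.

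Of 7 other genes of the network that were listed for comparison, 6 passed the filter. The list was written with some results of these data known, so its counts and p-values are descriptions. With PB against DMSO 2 were called higher and 1 lower, where 16.9% and 11.3% of all genes were. With RA 2 were called higher and 0 lower, where 10.8% and 2.54% of all genes were. With PB+RA 3 were called higher and 1 lower, where 24.0% and 17.9% of all genes were. MYC itself was at 1.49, 1.79, 3.23 and 2.32 CPM in DMSO (42 to 102 counts), or 0.361 ± 0.125 CPM per kb of exon against 1070 ± 115 for MYCN, and rose to 9.02, 10.8, 9.13 and 8.81 CPM with PB+RA. The log2 fold change was 2.06 ± 0.20 with PB+RA (adjusted p = 9.9e-08 by edgeR), 1.21 ± 0.20 with RA (adjusted p = 0.00021) and 0.75 ± 0.20 with PB (adjusted p = 0.0048). The rise with PB was not called on replicates 3 and 4 alone, whose same-numbered log2 ratios were 0.20 and 0.30 against 1.34 and 1.37 in replicates 1 and 2.

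MXD1 and MXD3, both MXD repressors, moved in opposite directions. MXD1 rose from 8.51 to 9.52 CPM in DMSO to 21.4 to 24.9 CPM with PB (log2 fold change 1.36 ± 0.09, adjusted p = 7.9e-09) and to 23.8 to 28.1 CPM with PB+RA (1.47 ± 0.09, adjusted p = 6.5e-10 by edgeR). MXD3, which is known to be expressed in cycling cells, fell from 28.2 to 33.6 CPM in DMSO to 11.8 to 13.6 CPM with PB (-1.26 ± 0.09, adjusted p = 1.1e-08) and to 4.78 to 6.51 CPM with PB+RA (-2.46 ± 0.10, adjusted p = 2.7e-12). Its fall with PB+RA was larger than the sum of the falls with each agent, with an interaction of -0.90 ± 0.13 (adjusted p = 0.00095).

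MYCL was at 0.693 to 1.14 CPM in DMSO (17 to 36 counts) and rose with RA alone to 2.29 to 3.32 CPM (1.57 ± 0.24, adjusted p = 0.00013 by edgeR). With PB+RA it was at 1.06 to 1.62 CPM, and the interaction was -1.61 ± 0.35 (adjusted p = 0.012). MLXIP, a glucose-responsive partner of MLX, rose with PB+RA (0.94 ± 0.10, adjusted p = 5.4e-07), from 88.5 to 115 CPM in DMSO to 173 to 231 CPM. MLX was not called in any comparison, and MLXIPL had at most 4 counts in a sample and was not tested.

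Levels of different genes were compared as CPM per kb of exon, which depends on the gene models used. In DMSO the order was MYCN (1070 ± 115 CPM per kb, SD, n = 4), DDX1 (41.1 ± 1.63), MXD4 (14.2 ± 0.428), MAX (10.8 ± 0.636), MYCNOS (7.97 ± 1.35), MXI1 (7.04 ± 0.852), MNT (4.74 ± 0.486), MGA (2.18 ± 0.111), NBAS (2.10 ± 0.136) and GACAT3 (0.657 ± 0.215). The samples of MYCNOS and MXI1 overlapped, as did those of MGA and NBAS, and the other neighbours in this order did not. With PB+RA, MXD4 reached 31.5 ± 3.58 CPM per kb and overlapped with MYCNOS (21.8 ± 7.64).

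The genes whose log2 CPM followed MYCN most closely over the 16 samples, out of 10002 genes that averaged 10 CPM or more, were MRPS21 (Pearson r = 0.988), NDUFA10 (0.980), CMAS (0.979), DCAF4 (0.978) and RPL37 (0.978). MYCNOS stood at position 110 in this order and GACAT3 at 130. Those most like GACAT3 were TMCC1-DT (0.986), PEX5 (0.985), ANKRD46 (0.983), SPTBN4 (0.981) and PIK3R2 (0.981). MXD4 stood at position 8 among them, with r = 0.978, whereas DDX1 had r = 0.321 with GACAT3. The 16 points fall into the 4 treatment groups, so these r values mostly describe a shared difference between groups.

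A list of 20 cofactors and regulators of N-Myc was tested in full. This list and those of activated and repressed genes below were written with some results of these data known. Their counts and p-values are therefore descriptions of these data. With PB 1 was called higher and 5 lower, where 16.9% and 11.3% of all genes were. RA against DMSO gave 0 in either direction (10.8% and 2.54% of all genes), and PB+RA gave 2 higher and 9 lower (24.0% and 17.9% of all genes), with a median log2 fold change of -0.30, -0.04 and -0.39. At an unadjusted p below 0.05 in edgeR, 12 of the 20 passed with RA, a threshold whose share of all genes is not given here. At an adjusted p below 0.05 with no fold minimum 9 passed with RA, 8 of them lower. Of all genes 18.8% were then higher and 16.4% lower. DESeq2 called 1 of the 20 with RA and limma-voom 0. AURKA, a mitotic kinase that also stabilises the N-Myc protein, fell from 131 to 136 CPM in DMSO to 63.2 to 72.0 CPM with PB (-0.98 ± 0.08, adjusted p = 4.4e-08 by edgeR) and to 26.9 to 37.5 CPM with PB+RA (-2.15 ± 0.08, adjusted p = 2.7e-12), where its interaction was -0.68 ± 0.11 (adjusted p = 0.0025). With RA, AURKA was at 93.2 to 102 CPM, below every DMSO sample (-0.49 ± 0.08, adjusted p = 0.00017 by edgeR). This value lay just under the fold threshold. It stayed uncalled in 8 of 18 alternatives and was called lower in the rest. SKP2, an F-box protein of the cell cycle that also targets MYC proteins, fell with PB (-0.84 ± 0.06) and with PB+RA (-1.36 ± 0.06) (adjusted p = 1.4e-08 and 1.6e-11).

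ACTL6A, a chromatin-remodelling subunit, fell with PB (-0.77 ± 0.08, adjusted p = 5.7e-07 by edgeR) and with PB+RA (-0.95 ± 0.08, adjusted p = 2.2e-08). WDR5, a chromatin adaptor that binds MYC proteins, fell with PB+RA (-0.77 ± 0.05, adjusted p = 2.7e-10). FBXW7, which directs N-Myc to degradation, moved the other way, from 25.0 to 28.9 CPM in DMSO to 40.5 to 45.2 CPM with PB (0.68 ± 0.08, adjusted p = 2.3e-06). It was also called higher with PB+RA (0.57 ± 0.08, adjusted p = 9.3e-06), though not without PB+RA replicate 2 (0.46) or on replicates 3 and 4 alone (0.41).

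A list of 26 genes known as activated by MYC proteins (ribosome biogenesis, nucleotide synthesis and metabolism) had no member called higher at the fold threshold with any treatment against DMSO. This list was written with some results of these data known, so its counts and p-values are descriptions. With PB, 0 were called higher and 7 lower, where 16.9% and 11.3% of all genes were, and with PB+RA 0 higher and 14 lower, where 24.0% and 17.9% were. The median log2 fold change was -0.19 with PB, -0.24 with RA and -0.54 with PB+RA, and 21, 25 and 25 of the 26 had a value below 0. With RA against DMSO 0 were called in either direction, where 10.8% of all genes were called higher and 2.54% lower. In edgeR 22 passed an unadjusted p of 0.05, a threshold whose share of all genes is not given here. At an adjusted p below 0.05 with no fold minimum 17 passed with RA, 16 of them lower. Of all genes 18.8% were then higher and 16.4% lower. DESeq2 called 1 and limma-voom 0. In the direct comparisons, PB+RA against PB had 5 called lower, where 7.27% of all genes were, and PB+RA against RA had 8, where 14.1% of all genes were.

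FBL, a nucleolar RNA methyltransferase, fell from 379.5 to 456 CPM in DMSO to 205 to 246 CPM with PB (-0.89 ± 0.11, adjusted p = 3.3e-06 by edgeR) and to 136 to 183 CPM with PB+RA (-1.44 ± 0.11, adjusted p = 6.7e-09). MCM7, a subunit of the replicative helicase that E2F factors also control, fell with PB (-0.80 ± 0.06, adjusted p = 1.1e-08) and PB+RA (-1.32 ± 0.06, adjusted p = 9.5e-12). LDHA, lactate dehydrogenase A, fell with PB (-0.78 ± 0.07, adjusted p = 2.6e-07) and PB+RA (-1.05 ± 0.07, adjusted p = 2.7e-09). SHMT2, of mitochondrial serine metabolism, fell with PB (-0.72 ± 0.06, adjusted p = 4.5e-08), and PAICS, of purine synthesis, fell with PB+RA (-1.05 ± 0.05, adjusted p = 2.7e-11).

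All 9 genes on a list known as repressed by MYC proteins were tested. This list, too, was written with some results of these data known. With PB 5 were called higher and 1 lower, where 16.9% and 11.3% of all genes were. RA gave 4 higher and 0 lower (10.8% and 2.54% of all genes), and PB+RA gave 8 higher and 0 lower (24.0% and 17.9% of all genes). The median log2 fold change was 0.70, 0.21 and 1.21. CLU, an extracellular chaperone, rose most with PB, from 84.5 to 95.2 CPM in DMSO to 300.2 to 326 CPM (1.82 ± 0.08, adjusted p = 1.2e-10 by edgeR), and DKK3, a secreted glycoprotein, rose with PB (1.07 ± 0.08, adjusted p = 2.3e-08). Both were also called higher with PB+RA, CLU by 1.12 ± 0.08 (adjusted p = 2.5e-09) and DKK3 by 1.12 ± 0.08 (adjusted p = 3.9e-09). NGFR, the low-affinity neurotrophin receptor, rose with PB (1.26 ± 0.34, adjusted p = 0.0054), RA (1.49 ± 0.34, adjusted p = 0.0035) and PB+RA (2.57 ± 0.35, adjusted p = 1.1e-05).

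TGM2 and CDKN1A, which retinoids are known to induce, rose with RA by 2.54 ± 0.22 (adjusted p = 1.1e-06 by edgeR) and 1.37 ± 0.15 (adjusted p = 7.4e-06), and CDKN1A, a cyclin-dependent kinase inhibitor, was the gene called lower with PB (-0.52 ± 0.15, adjusted p = 0.0092). That fall was not called without PB replicate 4 (-0.46) or on replicates 1 and 2 alone (-0.50). With PB+RA, TGM2 and CDKN1A were called higher, by 1.25 ± 0.21 (adjusted p = 0.00010 by edgeR) and 1.08 ± 0.15 (adjusted p = 9.8e-06). NDRG4 rose with PB (0.66 ± 0.09, adjusted p = 8.9e-06), RA (0.84 ± 0.09, adjusted p = 3.6e-06) and PB+RA (1.57 ± 0.09, adjusted p = 1.8e-10). Its value with PB was 0.48 and not called after the GC and length correction.

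**Figure D5:**
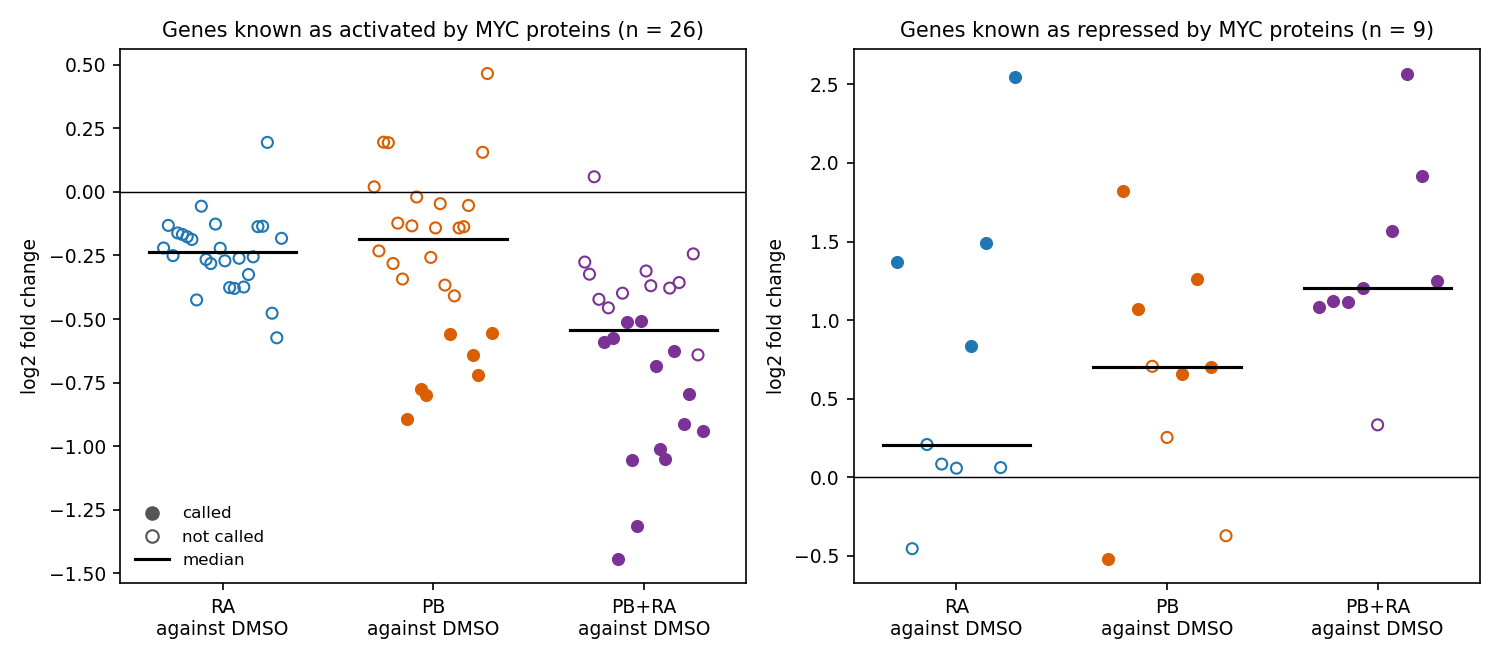
Log2 fold change against DMSO of the 26 genes known as activated (left) and the 9 known as repressed (right) by MYC proteins, a point per gene, filled where called, with the median as a line. The medians of the activated list are -0.24, -0.19 and -0.54 for RA, PB and PB+RA, and those of the repressed list 0.21, 0.70 and 1.21.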

How the data were processed

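RNA was polyadenylated RNA sequenced as strand-specific paired-end libraries. The authors trimmed reads with Trim Galore 0.6.4, aligned them to hg19 with STAR 2.6.1d and deposited the counts per gene that STAR gave. The annotation release and strand column are not given in the sources used here. The deposited CPM were made by the authors by scaling the counts to each sample's total. The authors' table of comparisons from DESeq2 1.32.0 (log2 fold changes and adjusted p-values) was not used.

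Counts were tested with edgeR 4.0.16 in R 4.3.3. Genes were kept by filterByExpr (15415), scaled by TMM factors (0.983 to 1.02) and fitted on all 16 samples with a coefficient per group. A call needed an adjusted p (Benjamini-Hochberg, across every gene tested) below 0.05 and an absolute log2 fold change above 0.5. The SE was taken as the size of the log2 fold change over the root of its F statistic. Adjusted p-values of genes come from this fit, apart from the highest ones over the alternatives that are given for interactions. Likeness used log2 CPM with a prior count of 2. DESeq2 1.42.0 and limma-voom (limma 3.58.1) were alternatives. The procedure was tested on simulated data. Totals were 19.5 to 31.6 M, and floors of 3 counts cover counting error only.

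Groups and replicate numbers are from the titles. Same-numbered samples deviated together from their group means (24 pairs, r between 0.330 and 0.573). Differently numbered samples of different groups gave r between -0.492 and 0.447, a range that overlaps the first. The numbers were taken to pair samples, and a fit with the replicate block was an alternative. The SE and adjusted p-values printed are from the fit without the block, where differences between replicate numbers count as spread. With the block 1171 of 15415 genes were called for the interaction, against 530 without it. The methods describe replicates as passages plated independently. Replicates differed by more than sampling noise.

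Members and lists were chosen with earlier results of these data known. Named list genes were the called ones with the largest change against DMSO, at most 4 per list and comparison, with a mean of at least 10 CPM in the 8 samples compared, beside the members, MYC, MYCL and expressed locus genes. The other genes of the MAX network list and the interaction values were named after their values were seen. Gene models are GENCODE mapped to GRCh37, the assembly hg19, and exon length is the union over transcripts. Some genes on these lists are not reported here.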

Additional observations from a re-analysis of the deposited data

Results flagged for a closer look

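In 144 groups of 4 samples (36 genes in 4 groups), 10 samples stood apart from the other 3 of their group, with a gap to the nearest sample that took up more of the range than Dixon's critical value allows. Chance gives about 1 in 20 groups. For members these were MYCN in RA replicate 2 (0.883 of the range), DDX1 in DMSO replicate 2 (0.865), MGA in DMSO replicate 3 (0.935) and MGA in PB+RA replicate 4 (0.882). The sample of MGA in PB+RA was the highest at 47.3 CPM, beside 34.8 to 36.3 CPM in the other 3. For other genes they were MXD3 in PB replicate 1 (0.928), SKP2 and ACTL6A in RA replicate 3 (0.900 and 0.881), WDR5 in DMSO replicate 4 (0.915), NDRG4 in RA replicate 2 (0.923) and MYC in PB+RA replicate 2 (0.836).

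The interaction, in which the effect of PB differs with and without RA, was called for 3 of the genes named. The call used edgeR with all genes adjusted and the fold threshold, and 3.44% of all genes were called. The value was negative for MXD3 (-0.90 ± 0.13, adjusted p = 0.00095), AURKA (-0.68 ± 0.11, adjusted p = 0.0025) and MYCL (-1.61 ± 0.35, adjusted p = 0.012). With no fold minimum MCM7 (-0.39 ± 0.08, adjusted p = 0.0090), PAICS (-0.27 ± 0.07, adjusted p = 0.036) and SKP2 (-0.32 ± 0.09, adjusted p = 0.039) also passed. Over the 25 alternatives the highest adjusted p was 0.013 for MXD3, 0.012 for AURKA and 0.085 for MYCL, the last from replicates 1 and 2 alone.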

How the results depend on the processing

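The direction of every called member value held under every alternative, and the PB and PB+RA rises of MYCNOS, GACAT3, MXI1 and MXD4 stayed called in each. MYCN with PB+RA fell under the fold threshold with the GC and length correction (0.47) and on replicates 3 and 4 only (0.29), and it ranged from 0.43 to 0.65 when leaving out a replicate. The members called higher with PB+RA then numbered 4 with the correction, 4 on replicates 3 and 4, and 4 to 7 without a replicate, with 4 reached without PB+RA replicate 1 and without PB+RA replicate 2. Of all genes, 3698 of 15415 were called higher with PB+RA in the main fit and 3220 with the correction. The number was 3405 of 15414 on replicates 3 and 4, and 3406 to 3677 without a replicate. With the paired fit (replicate block) 1 member was called lower with PB+RA against PB and 1 for the interaction, GACAT3 in both cases. The first was also reached with limma-voom (1), on replicates 3 and 4 only (1) and without PB+RA replicate 2 (0 to 1 over the left-out replicates). Of all genes, limma-voom called 1123 of 15415 lower in this comparison. The number was 1199 of 15414 on replicates 3 and 4 and 1149 of 15591 without PB+RA replicate 2. The block changed no other call of a member.

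With no fold minimum, the members called were 8 higher with PB, 3 higher and 1 lower with RA, 8 higher and 1 lower with PB+RA against DMSO, 1 higher and 1 lower with PB+RA against PB, and 7 higher and 1 lower with PB+RA against RA, where between 16.4% and 34.7% of all genes passed in each direction. The activated list then gave 1 higher and 15 lower with PB, 1 higher and 16 lower with RA, 23 lower with PB+RA, 22 lower against PB, 1 higher and 19 lower against RA and 3 lower for the interaction. The same range of shares of all genes stands beside these, and for the interaction 4.35% of all genes were lower.

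For the activated list with RA, 1 gene was called lower under RLE size factors, DESeq2, no filter and the replicate block, 3 with the GC and length correction, 3 on replicates 3 and 4, and 0 to 1 without a replicate (1 without DMSO 3, DMSO 4, RA 1 or RA 2). Of all genes tested, 392 of 15415 were called lower with RA in the main fit. The number was 466 under RLE size factors, 468 by DESeq2, 474 of 27037 with no filter and 509 with the replicate block. It was 788 with the GC and length correction, 689 of 15414 on replicates 3 and 4, and 389 to 474 without a replicate. With PB+RA against PB the activated list had 3 called lower with the 2 groups alone, 3 on replicates 1 and 2, and 3 to 8 without a replicate (3 without PB 4 or PB+RA 3, 8 without PB+RA 2). Of all genes, 1121 of 15415 were called lower in this comparison in the main fit. The number was 969 of 14772 with the 2 groups alone, 1053 of 15515 on replicates 1 and 2, and 1023 to 1149 without a replicate. In the repressed list the gene lower with PB was lost (0) on replicates 1 and 2 and without PB 4 (0 to 1), and 1 was lower with RA under the GC and length correction, on replicates 1 and 2, with no fold minimum and without RA 3 (0 to 1). Of all genes, 1746 were called lower with PB in the main fit, 1872 of 15515 on replicates 1 and 2 and 1989 of 15631 without PB 4. Lower with RA were 788 with the correction, 308 on replicates 1 and 2, 2527 with no fold minimum and 405 without RA 3. The interaction count of the repressed list was 0 higher on replicates 1 and 2 and 1 lower by DESeq2, where 58 and 515 of all genes were. Of the other values, 16 fell under the threshold, 5 passed it, 51 counts moved and none reversed. The cause was not tested.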

Other observations

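The lists of cell identity markers held genes that moved in both directions. Of 8 adrenergic genes, PB had 3 called higher and 1 lower than DMSO, RA had 2 higher and 2 lower, and PB+RA had 2 higher and 1 lower. The shares of all genes tested that were called higher and lower, which also stand beside the counts of the next list, were 16.9% and 11.3% for PB, 10.8% and 2.54% for RA, then 24.0% and 17.9% for PB+RA. TH, tyrosine hydroxylase, rose with PB+RA by 1.88 (adjusted p = 8.7e-08 by edgeR), and GATA3, a sympathetic lineage factor, rose with PB (0.79, adjusted p = 0.0015) and fell with RA (-0.89, adjusted p = 0.0015). Of 7 mesenchymal genes tested, PB had 1 higher and 4 lower, RA had 3 higher and 0 lower, and PB+RA had 1 higher and 3 lower. FN1, fibronectin, rose with RA (2.06, adjusted p = 5.0e-05), and YAP1, a Hippo pathway coactivator, rose with RA (1.13, adjusted p = 0.0050) and fell with PB (-1.27, adjusted p = 0.0039) at a low level. S100B, a calcium-binding protein of glial cells, was higher with PB (0.88, adjusted p = 0.00086).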
